A study of Mus musculus with 8 samples.

Results

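Genes that mark resting or activated cardiac fibroblasts, 10 of the 23045 measured, were followed in hearts whose muscle cells had lost Mettl3. They were picked by symbol, with earlier results of these data known. The resting set held 7 genes, Pdgfra, Tcf21, Ddr2, Dpt, Pi16, Scara5 and Gsn, and the activation set held 3, Meox1, Cthrc1 and Fap. All 10 passed the filter on low values. RNA-seq of hearts compared 4 WT libraries with 4 Mettl3 KO libraries. WT mice had the genotype Mettl3lox/lox. Mettl3 KO mice had the genotype Mettl3lox/lox:alphaMHC-MerCreMerpos, so a tamoxifen-inducible Cre recombinase under the cardiomyocyte promoter of alpha myosin heavy chain deleted the gene that encodes the core enzyme of RNA N6-methyladenosine. Per the study's methods, mice of both genotypes, injected at an age of 10 to 16 weeks, received 100 µg of tamoxifen per 1 g of body weight into the abdominal cavity on 7 consecutive days. The interval from the injections to RNA isolation is not given in the sources used here, nor is how much of the atria each sample held. Because the WT mice lacked the Cre transgene, effects of the transgene and of the deletion cannot be told apart. The deletion is driven in cardiomyocytes, so fibroblasts of Mettl3 KO hearts should keep Mettl3.

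Fibroblasts lie between the muscle cells of the heart and build the collagen matrix that carries them. In the uninjured heart they are held in a resting state and are recognised by receptors such as PDGFRA and DDR2 and by the transcription factor TCF21. After injury or overload they divide, turn on genes for matrix and for its remodelling, and part of them become contractile myofibroblasts, a change in which transforming growth factor beta (TGF-beta) is a main signal. MEOX1 is a transcription factor, CTHRC1 a secreted protein and FAP a surface protease that are associated with this activated state. GSN and MEOX1 are not restricted to fibroblasts.

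The fibroblast genes did not all change the same way. Pdgfra, Dpt, Pi16 and Meox1 were higher in Mettl3 KO hearts by 25.7% to 32.2% of the WT mean, Gsn was higher by 11.4%, and Scara5 fell by 27.9%. Ddr2, Tcf21, Fap and Cthrc1 did not pass the test. Hence 6 of the 10 genes had an adjusted p under 0.05 (limma, Benjamini-Hochberg over all genes tested), against 7.91% of 20313 tested genes. Higher in Mettl3 KO were 5 of 10 (4.72% of all tested genes), and lower was 1 of 10 (3.19% of all tested genes). The same 6 genes had values that did not overlap between the genotypes, which held for 11.5% of all tested genes. Whether this RNA came from more cells or from more RNA per cell cannot be told apart in RNA of heart tissue, and for Scara5 fewer cells of a type and less RNA per cell cannot be told apart either.

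The values are normalized read counts. They summed to 2839589 to 2916986 per library, which corresponds to 2631904 to 3061268 reads as estimated from gaps among the low values. Mettl3 itself had 105, 133, 118 and 107 in the WT libraries and 74, 68, 69 and 78 in the Mettl3 KO libraries, 62.4% of the WT mean, and Esr1, whose ligand-binding part belongs to MerCreMer, had 13 to 20 in WT libraries and 693 to 851 with Mettl3 KO. Both genes matched the labels in all 8 libraries. Mettl3 KO replicate 1 stood apart from the other Mettl3 KO libraries, and WT replicate 3 from the other WT libraries, in the atrial genes Myl7, Myl4, Sln and Bmp10, whose values summed to 150, 141, 17 and 137 in WT replicates 1 to 4 and to 146, 563, 564 and 911 in Mettl3 KO replicates 1 to 4. The labels number the replicates but do not say that each came from a separate animal, so p-values measure only the spread between these samples.

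Sequence just upstream of the genes is shown for Dpt, Pdgfra and Pi16, which encode a matrix protein, a growth factor receptor and a surface protein and were all higher in Mettl3 KO hearts. The windows run from 250 bases before to 50 bases after the annotated start in RefSeq (GRCm38.p6), 5′ to 3′ on the strand of the gene, at chr1:164796413-164796712, chr5:75152001-75152300 and chr17:29318632-29318931, all on the plus strand. Capitals mark E-boxes, the letters CANNTG, which read the same on both strands and are bound by basic helix-loop-helix factors, the family of TCF21.
Dpt: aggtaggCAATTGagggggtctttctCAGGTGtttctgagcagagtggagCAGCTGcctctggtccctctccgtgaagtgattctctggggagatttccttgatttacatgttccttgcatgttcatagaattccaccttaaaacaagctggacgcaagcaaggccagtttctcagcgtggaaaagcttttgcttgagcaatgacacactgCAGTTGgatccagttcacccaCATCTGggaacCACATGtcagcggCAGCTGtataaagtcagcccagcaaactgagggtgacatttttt
Pdgfra: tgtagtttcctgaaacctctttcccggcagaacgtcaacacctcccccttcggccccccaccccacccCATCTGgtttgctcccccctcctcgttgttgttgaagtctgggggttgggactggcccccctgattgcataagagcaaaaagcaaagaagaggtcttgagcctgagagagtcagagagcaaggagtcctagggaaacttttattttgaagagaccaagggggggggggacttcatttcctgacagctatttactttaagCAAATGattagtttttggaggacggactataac
Pi16: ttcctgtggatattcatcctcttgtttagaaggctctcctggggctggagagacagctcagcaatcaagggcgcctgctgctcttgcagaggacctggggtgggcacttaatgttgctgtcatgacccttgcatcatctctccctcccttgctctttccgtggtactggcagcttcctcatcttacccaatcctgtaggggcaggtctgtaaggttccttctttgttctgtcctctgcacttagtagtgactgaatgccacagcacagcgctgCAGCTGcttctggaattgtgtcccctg

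The Dpt window held 7 E-boxes, the Pdgfra window 2 and the Pi16 window 1. At least 1 E-box was present in 72.3% of 32851 windows of this length, and at least 7 in 0.177% of them. In all, 6 of the 10 genes had 8 windows in this table, of which 7 held an E-box, and the window of Tcf21 held none. The AP-1 letters TGANTCA, the TEAD letters GGAATG and the homeobox letters TAATTA, searched on both strands, were in none of the 8 windows and in 7.81%, 14.7% and 5.29% of all windows. A match describes letters only, and binding was not measured.

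**Figure D1:**
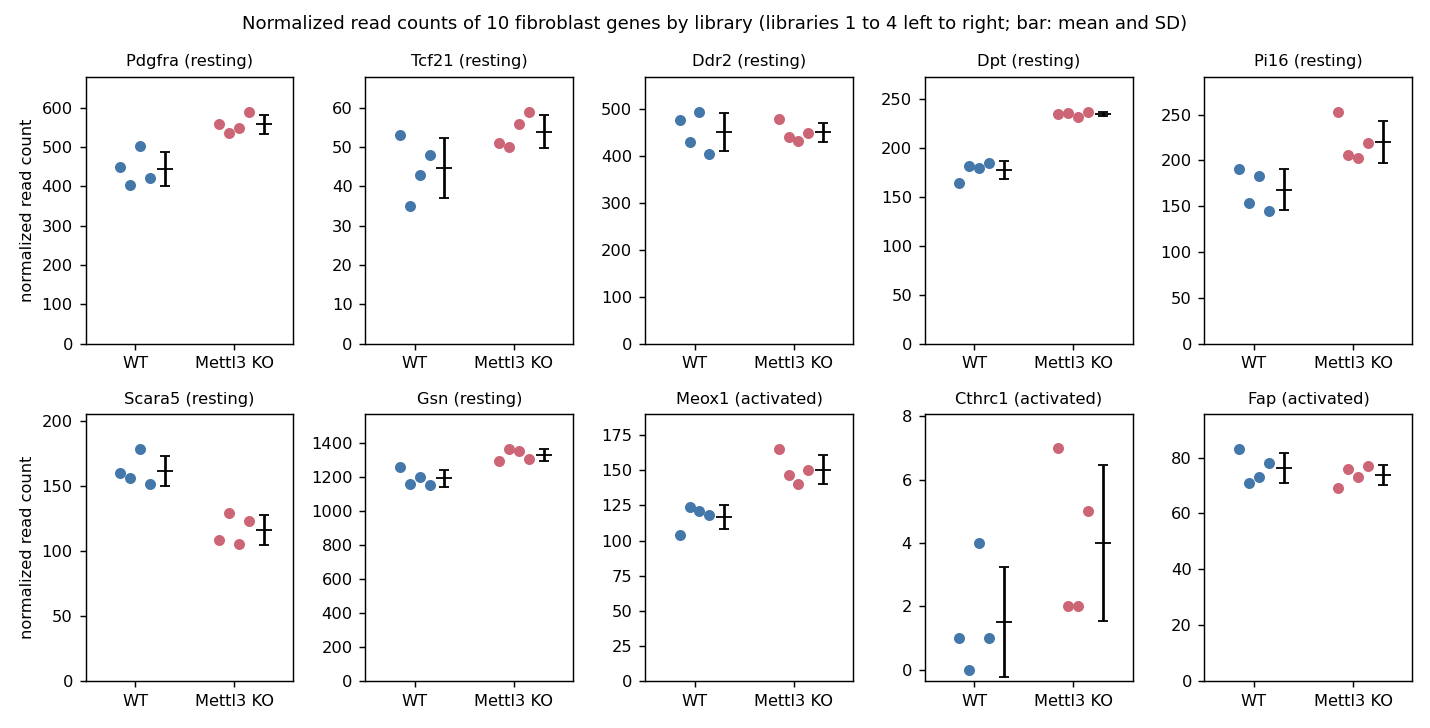
Each panel plots the normalized read count of 1 gene on the vertical axis for the 4 WT (blue) and 4 Mettl3 KO (red) libraries, with the mean and SD of the group beside the points (n = 4). Pdgfra, Dpt, Pi16, Gsn and Meox1 sit higher and Scara5 lower in every Mettl3 KO library, whereas the groups overlap for Tcf21, Ddr2, Cthrc1 and Fap.

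The surface receptors were examined first. Pdgfra (ENSMUSG00000029231, mm39 chromosome 5, 75312953 to 75358876, plus strand), the alpha receptor for platelet-derived growth factors, had 449, 403, 502 and 421 normalized read counts in WT replicates 1 to 4 and 558, 535, 549 and 590 in Mettl3 KO replicates 1 to 4. Every Mettl3 KO library exceeded the highest WT library, WT replicate 3. The group means were 444 ± 43.2 in WT and 558 ± 23.3 in Mettl3 KO hearts (SD, n = 4 each), a log2 fold change of 0.33 (adjusted p = 0.00105 by limma, SE 0.06).

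Ddr2 (ENSMUSG00000026674, chromosome 1, 169799876 to 169938331, minus strand), a receptor tyrosine kinase that binds fibrillar collagen, had 476, 430, 494 and 405 in the WT and 479, 441, 432 and 449 in the Mettl3 KO libraries. All 4 Mettl3 KO values lay within the WT range. The means were 451 ± 41.0 and 450 ± 20.4 (SD, n = 4 each), with a 95% interval of the log2 fold change from -0.13 to 0.13 (limma adjusted p = 1.0). The upper bound lay below the log2 fold change of Pdgfra. The log2 ratio of Pdgfra to Ddr2 within a library was -0.02 ± 0.08 in WT and 0.31 ± 0.08 in Mettl3 KO hearts (SD, n = 4 each), without overlap. The ratio is given as a description, with no test.

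Scara5 (ENSMUSG00000022032, chromosome 14, 65903852 to 66002275, plus strand), a scavenger receptor that takes up ferritin, was the only member called lower. It had 160, 156, 178 and 151 in the WT libraries, and 108, 129, 105 and 123 in those of Mettl3 KO hearts. The highest Mettl3 KO library stayed below the lowest WT library. The mean went from 161 ± 11.8 to 116 ± 11.6 (SD, n = 4 each), 72.1% of the WT level, and the log2 fold change was -0.47 (adjusted p = 0.00136 by limma, SE 0.09). Since other resting genes rose, the proportions between them shifted. The log2 ratio of Scara5 to Dpt was -0.04, -0.22, -0.02 and -0.29 in the WT libraries and -1.11, -0.87, -1.14 and -0.94 in the Mettl3 KO libraries. With Scara5 lower and Dpt higher in every Mettl3 KO library, the ratio was necessarily lower there than in any WT library. This pair had the largest difference of the 36 pairs among 9 members. In all, 19 of the 36 ratios did not overlap between the genotypes, among them all 8 with Scara5. The ratios of Scara5 to Pdgfra, Pi16, Gsn and Meox1 were fixed in the same way as that to Dpt. The share over pairs of all genes was not computed, so the count is no result about the members. The ratios are descriptions with no test.

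Proteins of the matrix and of the outer cell surface came next. Dpt (ENSMUSG00000026574, chromosome 1, 164624213 to 164651835, plus strand) encodes dermatopontin, a small matrix protein that binds decorin. Its normalized read counts were 164, 182, 180 and 185 in the WT libraries, and 235, 236, 232 and 237 in those of Mettl3 KO hearts. The Mettl3 KO libraries were nearly identical and all lay above every WT library. Dpt had the largest called increase among the members in the main fit, from 178 ± 9.39 to 235 ± 2.16 (SD, n = 4 each), a log2 fold change of 0.40 (adjusted p = 0.000438 by limma, SE 0.07). Pi16 at 0.39 was within the SE of Dpt. The order of Dpt and Pi16 turned in some alternatives, such as without WT replicate 1 (0.36 and 0.46) or with the atrial genes as covariate (0.42 and 0.60). Counting error alone gives a coefficient of variation of 6.57% at the read number of Dpt in Mettl3 KO libraries, more than the 0.919% seen, so the narrow spread of these 4 values is no measure of their precision.

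Pi16 (ENSMUSG00000024011, chromosome 17, 29536654 to 29549567, plus strand), peptidase inhibitor 16, marks fibroblasts of the vessel sheath in many tissues. It had 191, 153, 183 and 145 in the WT libraries, and 253, 206, 203 and 219 in those of Mettl3 KO hearts. Mettl3 KO replicate 1 was the highest of all, and the remaining 3 Mettl3 KO libraries also lay above the WT range. The mean rose from 168 ± 22.4 to 220 ± 22.9 (SD, n = 4 each), a log2 fold change of 0.39 (adjusted p = 0.00838 by limma, SE 0.09).

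Of the secreted and protease genes of the activation set, neither passed the test. Fap (ENSMUSG00000000392, chromosome 2, 62331287 to 62404419, minus strand), fibroblast activation protein, had 83, 71, 73 and 78 in the WT libraries, and 69, 76, 73 and 77 in those of Mettl3 KO hearts. The genotypes overlapped almost fully. The means were 76.3 ± 5.38 and 73.8 ± 3.59 (SD, n = 4 each), with a 95% interval of the log2 fold change from -0.27 to 0.17 (limma adjusted p = 0.873). This upper bound was below the log2 fold change of 0.36 found for Meox1.

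Cthrc1 (ENSMUSG00000054196, chromosome 15, 38940327 to 38950516, plus strand), collagen triple helix repeat containing 1, was hardly detected. It had 1, 0, 4 and 1 in the WT libraries, and 7, 2, 2 and 5 in those of Mettl3 KO hearts, where a count of 0 allows up to 3 reads in a library. Most libraries were thus at or near the limit of detection, and the groups overlapped. Summed over libraries there were 6 reads in WT and 15 in Mettl3 KO hearts, a ratio of 2.63 per read sequenced with an exact 95% interval of 0.963 to 8.26 that covers counting error only. In the fit Cthrc1 had a limma adjusted p of 0.223, and a difference was not detectable at this depth.

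Gsn (ENSMUSG00000026879, chromosome 2, 35146392 to 35197904, plus strand) encodes gelsolin, which severs and caps actin filaments. Its values were 1255, 1154, 1199 and 1152 in the WT libraries, and 1289, 1361, 1348 and 1304 in those of Mettl3 KO hearts. The groups did not overlap, but the gap between WT replicate 1 and Mettl3 KO replicate 1 was small beside the level. The mean went from 1190 ± 48.5 to 1325 ± 34.5 (SD, n = 4 each), a log2 fold change of 0.16 (adjusted p = 0.0173 by limma, SE 0.04). This was the least stable call among the members. It was lost without WT replicate 2 or 4 or Mettl3 KO replicate 2 or 3 (limma adjusted p from 0.0638 to 0.0684) and with the mean log2 level of the 4 atrial genes as covariate (log2 fold change 0.13, limma adjusted p = 0.247).

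The 2 transcription factors of the list followed. Tcf21 (ENSMUSG00000045680, chromosome 10, 22693180 to 22696073, minus strand), the basic helix-loop-helix factor required for cardiac fibroblasts to form, had 53, 35, 43 and 48 in the WT libraries, and 51, 50, 56 and 59 in those of Mettl3 KO hearts. WT replicate 1 lay within the Mettl3 KO range, and the other three WT libraries below it. The means were 44.8 ± 7.68 and 54.0 ± 4.24 (SD, n = 4 each). The log2 fold change of 0.28 had a 95% interval from -0.02 to 0.58 (limma adjusted p = 0.286), which includes both no change and a change larger than that of Pdgfra.

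Meox1 (ENSMUSG00000001493, chromosome 11, 101768336 to 101785200, minus strand), a homeobox factor linked to the switch of fibroblasts to the activated state, was the only called gene of the activation set. It had 104, 124, 121 and 118 in the WT libraries, and 165, 147, 140 and 150 in those of Mettl3 KO hearts. Every Mettl3 KO library was above every WT library, with Mettl3 KO replicate 1 the highest. The mean rose from 117 ± 8.85 to 151 ± 10.5 (SD, n = 4 each), a log2 fold change of 0.36 (adjusted p = 0.00983 by limma, SE 0.09). The log2 ratio of Meox1 to Fap was 0.61 ± 0.21 in WT and 1.02 ± 0.15 in Mettl3 KO hearts (SD, n = 4 each), without overlap, whereas the ratio of Meox1 to Pdgfra, -2.10 to -1.69 in WT and -1.97 to -1.75 in Mettl3 KO libraries, overlapped. These ratios are descriptions with no test.

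**Figure D2:**
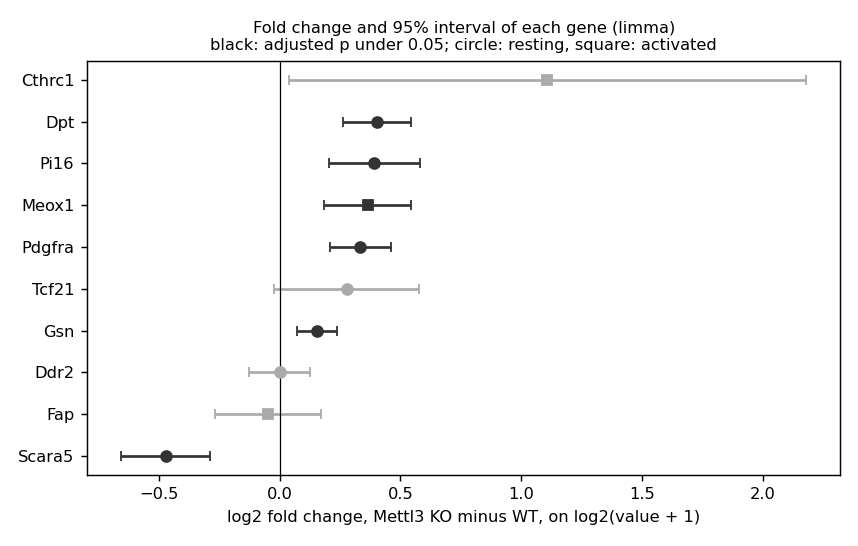
The horizontal axis gives the log2 fold change of Mettl3 KO against WT hearts on the log2(value + 1) scale, 1 row for each gene, with bars for the unadjusted 95% interval of the limma fit. Called genes are black, from Scara5 at -0.47 to Dpt at 0.40, and Cthrc1, with few reads, has the widest bar, from 0.04 to 2.18.

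The order of the members was then compared per kilobase of exon, since longer transcripts collect more reads. In WT hearts Gsn was the highest with 377 ± 15.4 normalized read counts per kilobase, followed by Dpt with 103 ± 5.45, Meox1 with 52.4 ± 3.97, Ddr2 with 48.7 ± 4.42 and Pdgfra with 44.3 ± 4.31 (SD, n = 4 each). Ddr2 differed from Meox1 by less than the SD and from Pdgfra by about the SD, and Scara5 with 26.5 ± 1.93 differed from Pi16 with 26.4 ± 3.52 by less than either SD. Tcf21 with 19.1 ± 3.27, Fap with 13.5 ± 0.95 and Cthrc1 with 0.942 ± 1.09 were the lowest. In Mettl3 KO hearts Pi16 stood at 34.6 ± 3.60, Tcf21 at 23.0 ± 1.81 and Scara5 at 19.1 ± 1.90 (SD, n = 4 each), so that Scara5, level with Pi16 in WT hearts, ranked below it and next to Tcf21.

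The libraries of a genotype also differed among themselves. In WT hearts, replicates 1 and 3 were above replicates 2 and 4 for Pdgfra, Ddr2, Pi16, Gsn and Scara5, so that 5 of the 10 genes shared the same split. Dpt and Meox1 were lowest in WT replicate 1. Among the Mettl3 KO libraries, replicate 1 had the highest Pi16, Meox1, Ddr2 and Cthrc1 and the lowest Gsn and Fap.

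**Figure D3:**
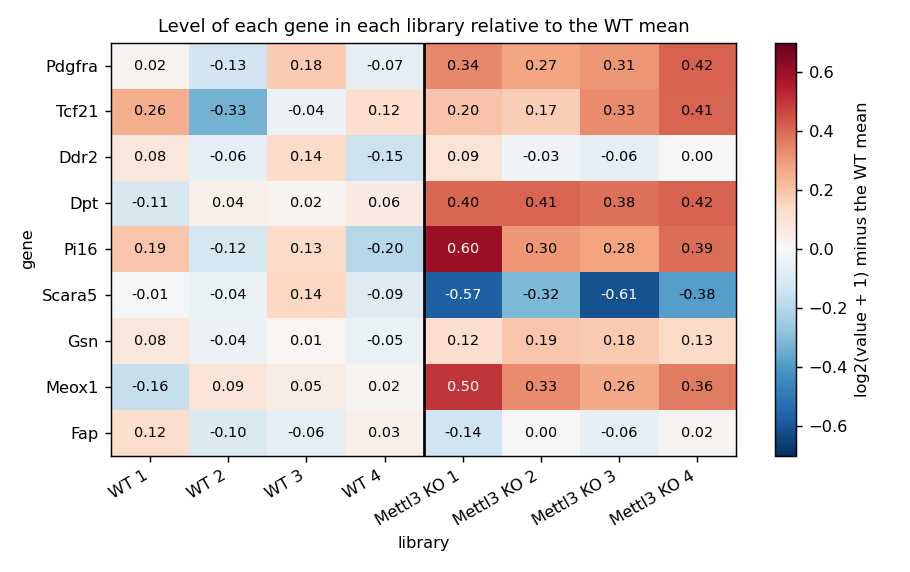
Each cell gives the log2(value + 1) of a gene (rows, without Cthrc1) in a library (columns) minus the mean of the 4 WT libraries, with red for higher and blue for lower. In the 4 Mettl3 KO columns Dpt stays between 0.38 and 0.42, Pi16 ranges from 0.28 to 0.60 and Scara5 from -0.61 to -0.32.

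Further genes of the same cells were read out from lists drawn up from general knowledge of the cell type. Earlier results of these data were known then, so counts set beside the shares of all tested genes are descriptions only. Of 20 further resting fibroblast genes, 6 were higher and 0 lower in Mettl3 KO hearts, beside 4.72% and 3.19% of all tested genes, with a median log2 fold change of 0.07, against a median of -0.01 over all tested genes. The median was 0.13 without WT replicate 1 or Mettl3 KO replicate 3, 0.12 without WT replicate 3 and 0.29 with the atrial covariate. At an unadjusted limma p under 0.05 the counts were 8 higher and 1 lower, where 10.8% of all tested genes were higher and 9.79% lower. Mfap5, a microfibril protein of vessel sheath fibroblasts, had the largest called increase at 0.68 (adjusted p = 0.000802 by limma, SE 0.12), and Lum, the collagen-binding proteoglycan lumican, followed at 0.48 (adjusted p = 0.000135 by limma, SE 0.07). Pcolce, which enhances the trimming of procollagen, rose by 0.41, and Htra3, a secreted protease, by 0.40 on the log2 scale. The most abundant genes of this list that did not pass were Col15a1 with 774 ± 17.7 and 829 ± 65.1 and Abca8a with 645 ± 34.7 and 658 ± 47.9 in WT and Mettl3 KO hearts (SD, n = 4 each). With the atrial covariate Mfap5 lost its call (log2 fold change 0.54, limma adjusted p = 0.106).

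Of 22 further activated fibroblast genes, 12 were higher and 0 lower, beside 4.72% and 3.19% of all tested genes, with a median log2 fold change of 0.53. At an unadjusted limma p under 0.05 the counts were 15 and 0, beside 10.8% and 9.79% of all tested genes. Ltbp2, a matrix protein of the family that binds latent TGF-beta, had 21, 16, 9 and 15 in the WT libraries, and 93, 48, 125 and 113 in those of Mettl3 KO hearts, a log2 fold change of 2.53 (adjusted p = 9.00e-07 by limma, SE 0.25). Cilp, a cartilage matrix protein also made by cardiac fibroblasts, had 66 to 121 in WT libraries and 219 to 357 with Mettl3 KO and a log2 fold change of 1.84 (adjusted p = 7.00e-08 by limma, SE 0.15). The matrix glycoproteins Thbs4 and Comp rose by 1.61 and 1.51 on the log2 scale. Acta2, the smooth muscle actin of myofibroblasts, had 163 ± 39.9 and 179 ± 35.5 (SD, n = 4 each, limma adjusted p = 0.638), and Runx1 had 75.8 ± 13.5 and 75.0 ± 11.6 (SD, n = 4 each, limma adjusted p = 0.985). Acta2 is also made by smooth muscle cells. Meox1, at 0.36, lay below the median of this list.

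**Figure D4:**
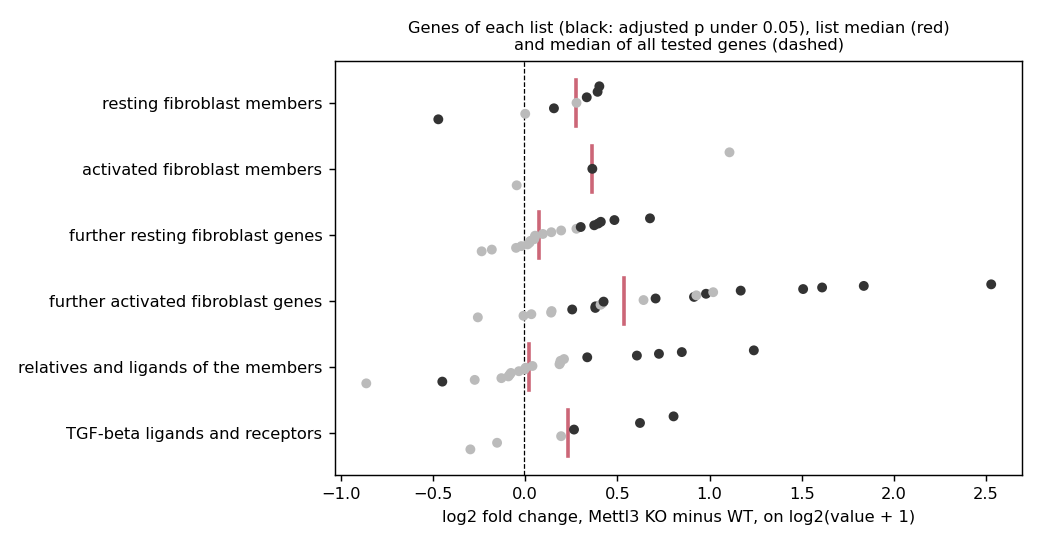
Each point is a gene of the list named on the left, placed by its log2 fold change of Mettl3 KO against WT hearts on the horizontal axis, with black for an adjusted p under 0.05. Red bars mark list medians, 0.28 for the resting and 0.36 for the activation members, 0.07 and 0.53 for the further lists, 0.02 for relatives and ligands and 0.23 for TGF-beta genes, and the dashed line marks the median of all tested genes at -0.01.

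Relatives and ligands of the members were examined to see whether changes extended to neighbours in sequence or in signalling. Of these 20 genes, 5 were higher and 1 lower, beside 4.72% and 3.19% of all tested genes. At an unadjusted limma p under 0.05 the counts were 5 higher and 3 lower, beside 10.8% and 9.79%. The median log2 fold change was 0.02 and ranged from 0.008 (without WT replicate 1) to 0.064 (without Mettl3 KO replicate 3) when a library was left out. Of the 4 platelet-derived growth factors only Pdgfc passed. Pdgfc, a ligand of PDGFRA, had 35, 32, 26 and 19 in the WT libraries, and 54, 51, 54 and 42 in those of Mettl3 KO hearts, a log2 fold change of 0.85 (adjusted p = 0.00400 by limma, SE 0.18). The groups did not overlap. Pdgfb was at -0.27 (95% interval -0.50 to -0.05, limma adjusted p = 0.143), Pdgfa at -0.03 and Pdgfd at 0.003 on the log2 scale, named here after their values were seen. Ddr1, the paralogue of Ddr2, had 112, 108, 107 and 100 in the WT libraries, and 195, 140, 159 and 162 in those of Mettl3 KO hearts, a log2 fold change of 0.61 (adjusted p = 0.000210 by limma, SE 0.09), beside the value near 0 for Ddr2.

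Meox2, the paralogue of Meox1, changed in the opposite direction. It had 174, 156, 151 and 143 in the WT libraries, and 120, 115, 100 and 121 in those of Mettl3 KO hearts, a log2 fold change of -0.45 (adjusted p = 0.00222 by limma, SE 0.09), and is also expressed by cardiac endothelial cells. Scin, scinderin, a relative of gelsolin, had 49, 55, 34 and 73 in the WT libraries, and 93, 128, 133 and 138 in those of Mettl3 KO hearts, a log2 fold change of 1.24 (adjusted p = 4.19e-05 by limma, SE 0.17). Scara3, from the scavenger receptor family of Scara5, rose by 0.73 (adjusted p = 0.0352 by limma, SE 0.21), whereas Scara5 fell. The most abundant relatives that did not pass were Svil at 0.04 and Dpp8 at -0.003 on the log2 scale. With the atrial covariate 2 of these 20 genes were called, Ddr1 and Crispld2, the latter named after its values were seen. Meox2 (log2 fold change -0.45, limma adjusted p = 0.067), Scin (0.61, adjusted p = 0.0873), Pdgfc (0.90, adjusted p = 0.075) and Scara3 (0.84, adjusted p = 0.173) then lost their calls, and Scara3 was lost in 7 of 18 alternatives in all. The log2 fold changes of Meox2, Pdgfc and Scara3 were as large as in the main fit or larger, while that of Scin fell from 1.24.

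For the TGF-beta genes, 3 of 6 were higher and 0 lower, beside 4.72% and 3.19% of all tested genes (4 and 2 at an unadjusted limma p under 0.05, beside 10.8% and 9.79%), with a median log2 fold change of 0.23. The ligand Tgfb2 had 110, 106, 111 and 115 in the WT libraries, and 194, 198, 187 and 196 in those of Mettl3 KO hearts, a log2 fold change of 0.80 (adjusted p = 4.79e-07 by limma, SE 0.08). Tgfb3 rose by 0.62 (adjusted p = 0.000113 by limma, SE 0.09). The receptor Tgfbr1 rose by 0.26 (adjusted p = 0.0429 by limma, SE 0.08), while Tgfbr2 at 0.19 and Tgfbr3 at -0.15 did not pass. The ligand Tgfb1, named after its values were seen, did not pass either, with 102, 92, 91 and 98 in the WT libraries, and 75, 83, 73 and 80 in those of Mettl3 KO hearts (log2 fold change -0.30, limma adjusted p = 0.0677), values that did not overlap. The call of Tgfbr1 was lost in 11 of 18 alternatives, and its log2 fold change was 0.17 without WT replicate 3 and 0.05 with the atrial covariate. With quantile normalization or voom, 2 of the 6 were higher and 1 lower.

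Markers of other cells were measured beside the members. The background for counts at an adjusted p under 0.05 is the 4.72% higher and 3.19% lower of all tested genes. For counts at an unadjusted limma p under 0.05 it is 10.8% higher and 9.79% lower. Of 8 endothelial markers 4 were lower, with summed values of 5172 to 5361 in WT libraries and 4466 to 4867 with Mettl3 KO. For 8 smooth muscle and pericyte markers 2 were lower, with sums of 4824 to 5087 and 4320 to 4673. Of 8 markers of mesothelial cells, which line the heart surface, 2 were higher, with sums of 100 to 173 and 183 to 287, and Upk1b, Krt8 and Krt18 were at 0 in at least 1 library. No macrophage marker of 8, no lymphocyte marker of 7 tested, no Schwann cell marker of 6 and no adipocyte marker of 5 tested passed, and the adipocyte markers Adipoq, Plin1, Cidec, Cfd and Retn were at 0 in at least 1 library. At an unadjusted limma p under 0.05, 6 endothelial, 3 smooth muscle and pericyte, 1 macrophage and 1 lymphocyte marker were lower, 4 mesothelial, 1 smooth muscle and pericyte and 1 adipocyte marker were higher and no Schwann cell marker passed. Cardiomyocyte markers summed to 90258 to 96655 in WT libraries and 87518 to 97820 with Mettl3 KO, with 1 of 8 lower (1 lower and 1 higher at an unadjusted limma p under 0.05). These sums mostly follow Ttn, which alone had a mean of 71020 in WT and 72294 in Mettl3 KO hearts. Of 8 cell cycle genes 2 were lower (5 at an unadjusted limma p under 0.05), with sums of 743 to 1200 in WT libraries and 528 to 717 with Mettl3 KO. The part of these cells in the members' differences was not tested.

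All 4 atrial genes were higher in Mettl3 KO hearts, though the groups overlapped. A covariate built from them is therefore partly confounded with genotype, and a call can be lost with it for want of precision. In Mettl3 KO replicate 1 the atrial sum of 146 was within the WT range of 17 to 150. The 6 called members did not overlap between the genotypes, so this library was necessarily outside their WT ranges. The part of atrial content in the members' differences was not tested. With the atrial covariate 5 of the 6 called members remained called, all but Gsn, and Scara5 was at the edge of the threshold (log2 fold change -0.47, limma adjusted p = 0.0499). Leaving out Mettl3 KO replicate 1 or WT replicate 3 left the count at 6 of 10.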

How the data were processed

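Total RNA of mouse hearts was sequenced as stranded single-end libraries. The authors trimmed reads with Trimmomatic 0.39, aligned them with STAR 2.7.11a to mm39 (Ensembl annotation), removed duplicates with Picard 3.1.1 together with multi-mapping, ribosomal and mitochondrial reads, counted exon reads by strand with featureCounts 2.0.4 and normalized with DESeq2 1.36.0. Reads over several genes were left out, which lowers genes that overlap others. The deposited values are a score, normalized read counts rounded to whole numbers and not raw counts, so no count test was run. A minimum mean of 1 kept 20313 of 23045 genes. On log2(value + 1), limma 3.58.1 (R 4.3.3) was run two-sided with a trend of variance on mean, genotype being the sole term, with Benjamini-Hochberg adjustment. This scale understates changes of low genes. Intervals of fold changes are unadjusted 95% intervals. Read numbers were recovered per library by maximum likelihood, and at most 11.6% of values in a library fit either of 2 read numbers. In a test on simulated data a log2 change of 0.5 was recovered for 30.5% of 200 genes and for 79.3% of the 58 with a mean of at least 100. Exon lengths came from an annotation of an earlier build, matched by gene identifier. RefSeq windows were matched by symbol, and Scara5, Meox1, Cthrc1 and Fap had no entry.

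The members and lists were chosen with earlier results of these data known, so no p was computed over a list. Named genes were all members, Mettl3 and Esr1, and from each of 4 further lists up to 4 higher and 4 lower genes with the largest change among those with a mean of at least 5 and an adjusted p under 0.05, plus up to 2 of the most abundant that did not pass. Atrial genes and markers at 0 were named beside results they touch, and Pdgfa, Pdgfb, Pdgfd, Tgfb1 and Crispld2 after their values were seen. Alternatives were other pseudocounts, filters and scalings, voom, a replicate block, an atrial covariate and leaving out each library.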

Additional observations from a re-analysis of the deposited data

Results flagged for a closer look

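Among the members, the named genes of the further lists and the library totals, 72 groups of 4 libraries were searched for a library far from the other three, and chance marks about 1 in 20 such groups. No member was marked. Tgfbr1 was marked in both genotypes. In WT, replicate 3 had 175 against 225 to 235 in the others, a gap of 0.833 of the group's range. In Mettl3 KO, replicate 1 had 251 against 260 in each of the others, a gap of 1.0 of a range that is small beside counting error.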

How the results depend on the processing

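Across 18 alternatives Pdgfra, Dpt, Pi16, Meox1 and Scara5 kept their direction and stayed called, with log2 fold changes of 0.29 to 0.43, 0.36 to 0.42, 0.32 to 0.60, 0.31 to 0.51 and -0.52 to -0.42. Gsn kept its direction in all 18 (0.13 to 0.18) and was called in 13. Tcf21, Ddr2 and Fap were called in none, and Cthrc1 in none of 17, since a minimum mean of 10 left it out. With the replicate block the 6 member calls remained and 1346 genes were called in all, against 1607. It called 5 of 20 relatives and ligands against 6 and 2 of 6 TGF-beta genes against 3. Deviations from the group mean correlated at -0.0238 to 0.0672 between same-numbered libraries and at -0.15 to 0.145 between the others. These values cannot show whether same-numbered libraries shared a batch, and the labels do not say. With the atrial covariate 913 genes were called, 601 of them shared, and 2 of 20 relatives and ligands against 6. Leaving out a library gave 1019 (without Mettl3 KO replicate 3, 979 of them shared) to 1596 genes and 5 or 6 members. The cause was not tested. At this depth a change of 0.5 on the log2 scale was mostly missed for genes with few reads, which limits Tcf21 and Cthrc1.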
